A study of Mus musculus with 178 samples.

Results

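The cytosolic ribosomal protein genes were described in whole blood of tumor-bearing mice before and during anti-PD-1 treatment. Members were chosen by symbol alone: genes named Rpl or Rps followed by a digit, together with Rpsa, Rplp0, Rplp1 and Rplp2, leaving out symbols marked -ps and the Rps6k kinases. This gave 93 of the 55450 gene rows in the count table, of which 88 were expressed highly enough to be tested in every comparison. The 5 members below that level were Rpl10l, Rpl32l, Rpl39l, Rpl3l and Rps3a3. The rule also took in 1 gene that is no ribosomal subunit, Rps19bp1, whose product binds Rps19, and 7 members that the GENCODE annotation of GRCm38 lists as pseudogenes (Rpl32l, Rpl37rt, Rpl6l, Rps12l1, Rps3a2, Rps3a3 and Rps4l).

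The data were 178 poly(A) RNA-seq libraries from 45 C57BL/6J mice of both sexes, aged 6 to 8 weeks, each carrying an orthotopic tumor of 4MOSC1 cells, a carcinogen-induced mouse oral carcinoma line, in the tongue or buccal mucosa. Every mouse received the anti-PD-1 antibody RMP1-14, so no untreated or isotype control was compared here. Blood was drawn on Day 4 (before treatment) and on Days 9, 17 and 24 (on treatment). There were 15 responders and 30 non-responders by tumor response. Responders gave 15 libraries on Days 4, 9 and 24 and 14 on Day 17, and non-responders gave 29 on Day 4 and 30 on each later day. Mice are numbered within each response group. The Day 17 library of non-responder 24 carries a responder label, while its other libraries do not, and it was counted with the non-responders. The comparisons asked whether these genes changed over treatment and whether they differed with response.

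Each cytosolic ribosome joins a small subunit, which reads the mRNA, to a large subunit, which forms the peptide bond, and most proteins of both are made from single-copy genes kept in balance with one another. Their mRNAs begin with a terminal oligopyrimidine (TOP) tract, a run of C and T bases at the very start of the transcript, through which mTORC1 and Larp1 control their translation. In blood, resting and activated lymphocytes are rich in these mRNAs, mature neutrophils hold few, and reticulocytes, the youngest red cells, still carry ribosomes that they lose as they mature. In bulk blood, fewer cells of a type and less RNA per cell cannot be told apart.

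Sequences around the annotated start were read from the RefSeq promoter table for GRCm38.p6, in which 68 of the 93 members had an entry. The following windows are shown because these genes carried the contrasts described below. Each holds 15 bases before the start and 15 from it onward, 5′ to 3′ on the gene's own strand, and capitals mark the longest run of C and T.

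Rpl41, chr10:128549154-128549183, minus strand: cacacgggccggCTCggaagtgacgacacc

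Rplp0, chr5:115559452-115559481, plus strand: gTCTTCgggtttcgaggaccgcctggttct

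Rplp2, chr7:141447636-141447665, plus strand: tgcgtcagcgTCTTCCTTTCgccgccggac

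Rpl38, chr11:114668565-114668594, plus strand: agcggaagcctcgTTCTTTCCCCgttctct

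Rpl28, chr7:4792950-4792979, plus strand: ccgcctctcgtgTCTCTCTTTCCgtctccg

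Rpl14, chr9:120571502-120571531, plus strand: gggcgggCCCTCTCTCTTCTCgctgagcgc

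Rps18, chr17:33955651-33955680, minus strand: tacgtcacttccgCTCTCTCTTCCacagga

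Rpl18, chr7:45718056-45718085, plus strand: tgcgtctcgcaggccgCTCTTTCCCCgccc

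A pyrimidine run of at least 8 bases lay within 50 bases of the start, on the coding strand, in 52 of 68 members (76.5%) and in 35.7% of all 27025 genes in the table. The letters CTTTCC, searched on the coding strand over the same stretch, were found in 19 members (27.9%), in 4.67% of all genes and in 4.35% of the 69 mitochondrial ribosomal protein genes with an entry. The letters CGGAAG, searched on both strands over the whole 300 bases, were found in 44 members (64.7%), in 17.2% of all genes and in 55.1% of the mitochondrial ribosomal protein genes. These matches describe the windows and do not identify bound factors or transcript starts in blood.

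The libraries held 26058958 to 82208665 counts (median 51971365), and haemoglobin transcripts took a median of 81.2% of them (68.7% to 88.0%). The haemoglobin share was higher in responders on Day 4 (median 83.8% against 79.4%) and on Day 9 (83.1% against 78.5%) than in non-responders, less so on Day 17 (83.2% against 81.8%), and close to theirs on Day 24 (80.9% against 81.4%). Since every value below is relative to the rest of a library, the scale matters. The main scale was log2 CPM (counts scaled to the size of the library) with TMM factors, which scale the libraries as if most genes did not differ, and every direction between response groups was also computed relative to the non-haemoglobin counts without TMM factors and in deposited TPM. Non-responder 29 gave a Day 24 library with by far the lowest TMM factor, 0.0848 against 0.2656 for the next lowest, and results that rest on it are given with and without it.

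Levels between genes were compared in TPM, which is per transcript length. Rpl41, a very short basic peptide of the large subunit, was highest, with a median of 545 TPM over all libraries (394 to 811). Rps27, a zinc-finger protein of the small subunit, followed with a median of 340 TPM and the wider range of 57.7 to 931. Rplp1, an acidic protein of the P stalk, which recruits elongation factors to the large subunit, had a median of 272 TPM. Rps29 (233 TPM) and Rps9 (208 TPM) came next, ahead of Rplp0, the anchor of the stalk, at 193 TPM. Neighbours in this order overlapped in range, as Rps29 (133 to 679 TPM) and Rps9 (118 to 426 TPM) did. At the other end Rpl10l, a germline copy of Rpl10, was listed at 0 TPM in every library. Among tested members the lowest were Rps4l (0.24 TPM), Rpl6l (0.27 TPM) and Rps19bp1 (0.53 TPM).

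The family took a median of 4.68% of non-haemoglobin counts in responders and 4.75% in non-responders on Day 4. On Day 9 the shares were 3.39% and 3.86%, on Day 17 3.91% and 3.86%, and on Day 24 3.98% and 3.95%. In both groups the share was thus lower on each treatment day than on Day 4. On the TMM scale, the level of the median member in a library was 5.92, 6.34 and 7.23 log2 CPM (lowest, median and highest) in responders on Day 4 and 5.82, 6.00 and 6.32 on Day 9. In non-responders it was 5.78, 6.14 and 7.26 on Day 4 and 5.58, 5.82 and 6.03 on Day 9. The upper part of the Day 4 range was therefore empty on Day 9, while the lower ends lay close together. Several of the highest Day 4 libraries had low TMM factors. Responder 8 (7.23 log2 CPM) had a factor of 0.2656 and a share of 3.90%, and responder 2 (7.21) a factor of 0.3355. Non-responder 22 (7.26) had 0.4983 and a share of 6.66%, but non-responder 16 (7.24) had 0.9698 and 7.30%. The part of the TMM factors in this range was not tested. The SD between mice for the median member gene was 0.50 in responders and 0.46 in non-responders on Day 4, against 0.17 and 0.13 on Day 9. On Day 17 the same library measure ran from 5.69 to 6.47 in responders and from 5.68 to 6.70 in non-responders, and on Day 24 from 5.84 to 6.81 and from 5.75 to 8.19, where 8.19 was the library of non-responder 29.

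**Figure D1:**
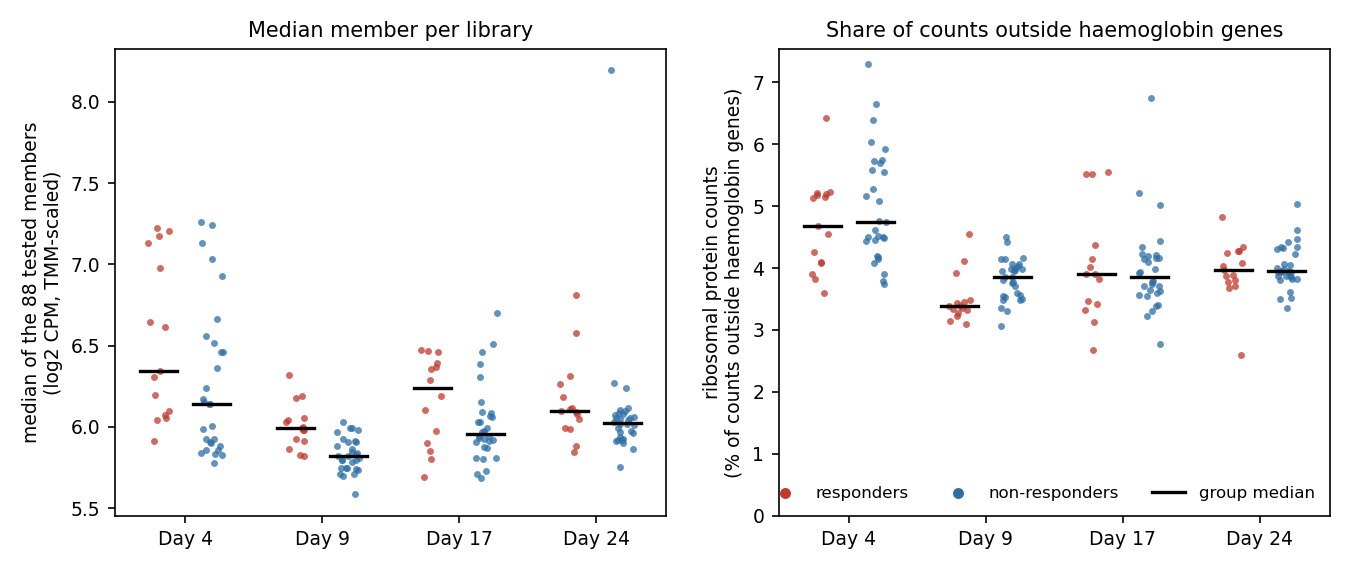
Family level in each library by day and response. The left panel plots the log2 CPM (TMM-scaled) of the median member per library and the right panel the members' share of non-haemoglobin counts in percent, with 1 point per library and a line at the group median. In both panels the group medians fell from Day 4 to Day 9, and 1 non-responder library on Day 24, at 8.19, lies above all the others in the left panel.

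The family fell during treatment in both response groups. Against Day 4, 72 of 88 members fell on Day 9 in responders and none rose, with a median log2 fold change of -0.54 beside 0.01 for all genes tested (14.2% of all genes were called lower). In non-responders 72 fell and 1 rose on Day 9, with a median of -0.46 beside -0.01 (27.5% called lower and 23.3% higher). Calls came from edgeR's quasi-likelihood F test, and a member counted as called where its p, adjusted over all genes by the method of Benjamini and Hochberg, was 0.05 or less. Among the members called lower, 25 in responders and 14 in non-responders fell by at least 1.5-fold, against 1.6% and 1.61% of all genes. Members of both subunits fell: 30 of the 37 with Rps symbols, which include Rps19bp1, and 42 of the 51 with Rpl symbols fell in responders, with the same numbers falling in non-responders. Rps19bp1 was not called in either group.

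Rps15, which sits at the decoding side of the small subunit, fell by 0.79 on the log2 scale in responders (SE 0.12) and by 0.69 in non-responders (SE 0.10) on Day 9. Rpl3, a core protein of the peptidyl transferase region, was at 6.78, 7.26 and 8.29 log2 CPM (lowest, median, highest) in responders on Day 4 and at 6.52, 6.80 and 6.95 on Day 9. In non-responders Rpl3 was at 6.77, 7.17 and 8.55 on Day 4 and at 6.57, 6.84 and 7.04 on Day 9. The groups of days overlapped only in their lower Day 4 libraries, and Rpl3 was lower on Day 9 than on Day 4 in 15 of 15 responders and 28 of 29 non-responders. Its log2 fold change was -0.79 in responders (SE 0.12, edgeR adjusted p = 3.97e-06) and -0.62 in non-responders (SE 0.08, edgeR adjusted p = 1.47e-11). Rps15 was at 6.32, 6.72 and 7.70 log2 CPM in responders on Day 4 and at 6.12, 6.21 and 6.54 on Day 9. It too was lower on Day 9 in 15 of 15 responders and in 28 of 29 non-responders. Over the tested members, the median change within a mouse was below 0 in 14 of 15 responders and 26 of 29 non-responders on Day 9. On Day 17 this held in 9 of 14 and 19 of 29, and on Day 24 in 11 of 15 and 17 of 29. The middle mouse was at -0.31 and -0.27 on Day 9, -0.22 and -0.16 on Day 17, and -0.24 and -0.125 on Day 24. Rps18 (-0.75 and -0.63), Rpl14 (-0.70 and -0.57), Rpsa, the laminin receptor protein of the small subunit (-0.74 and -0.63), and the X-linked Rps4x (-0.69 and -0.58) fell in responders and non-responders respectively, and Rpl18 fell by 0.68 in responders. Rpl14, Rps18 and Rpl18 are among the genes whose windows above hold runs of 10 or more pyrimidines. In windows of the same kind the longest run was 3 bases for Rps15, 5 for Rpsa and 4 for Rps4x, which fell too. It was 10 bases for Rplp2, which was not called against Day 4 on Day 9. A relation of run length to the fall was not tested.

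The 3 proteins of the P stalk and Rpl41 did not pass the test on Day 9 in either group. Rplp0 was at 8.44, 9.07 and 10.67 log2 CPM in responders on Day 4 and at 8.58, 9.25 and 10.08 on Day 9, ranges that lie over each other. Its log2 fold change was -0.24 in responders (SE 0.20, edgeR adjusted p = 0.397) and -0.15 in non-responders (SE 0.18, edgeR adjusted p = 0.494). Rplp1 stood at -0.35 (SE 0.18) and -0.36 (SE 0.16), and Rplp2 at -0.32 (SE 0.19) and -0.36 (SE 0.17), none of them called. Rpl41 was lower on Day 9 in 9 of 15 responders and 14 of 29 non-responders, with log2 fold changes of -0.11 (SE 0.22) and -0.12 (SE 0.20). These members also varied more between mice than Rpl3 did: on Day 9 the SD of Rpl41 was 0.54 in responders and 0.43 in non-responders, and that of Rpl3 0.12 and 0.13.

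**Figure D2:**
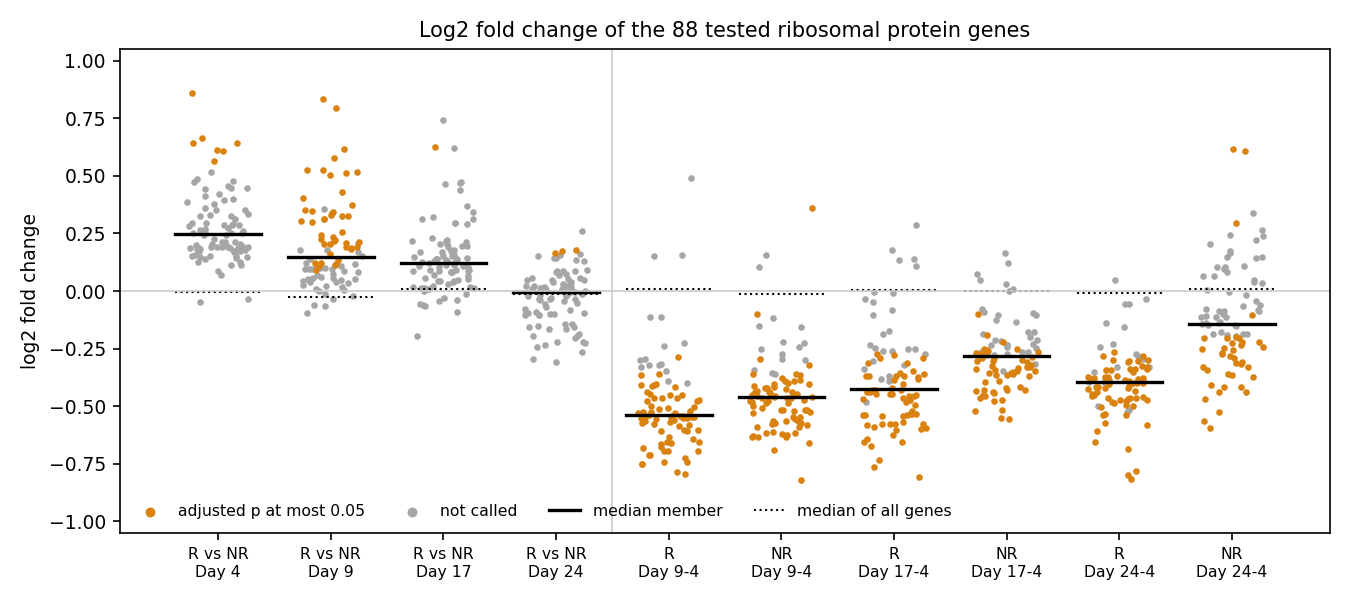
Log2 fold changes of the 88 tested members in 10 comparisons. The y axis gives the log2 fold change on the TMM scale and each column is a comparison (R, responders, and NR, non-responders), with 1 point per member, orange for members called at an adjusted p of at most 0.05, a line at the median member and a dotted line at the median of all genes. The changes from Day 4 lie mostly below 0 in both groups (medians -0.54 and -0.46 on Day 9), and the differences between responders and non-responders lie mostly above 0 on Days 4 and 9 on this scale, a direction that reversed in TPM (medians -0.57 on both days).

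The fall was still present on Day 17, where 61 members fell in responders and none rose (median -0.42, 13.4% of all genes called lower), and 53 fell in non-responders and none rose (median -0.28, 24.2% called lower). Rpsa had the smallest p in responders (-0.77, SE 0.13) and stood at -0.55 in non-responders (SE 0.09). Rpl3 (-0.73 and -0.52) and Rpl6, a large subunit protein (-0.64 and -0.47), also fell in responders and non-responders. On Day 24, 69 members fell in responders and none rose (median -0.39, 9.94% of all genes called lower). Rps27rt, an intronless copy of Rps27 (-0.82, SE 0.18), Rps28 (-0.80, SE 0.18), Rps29 (-0.78, SE 0.24), Rps15 (-0.54, SE 0.12) and Rpl36al (-0.46, SE 0.10) were among them, and 2 of the 3 stalk proteins, Rplp2 (-0.69, SE 0.19) and Rplp1 (-0.50, SE 0.18), fell as well. The Day 24 count in responders rested on a few mice, being 28 without responder 2, 35 without responder 8, 36 without responder 10 and 43 without responder 3. All 3 treatment days were compared with the same Day 4 libraries.

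In non-responders on Day 24, 35 members fell and 3 rose (median -0.14, 24.8% of all genes called lower and 23.8% higher). Rpl3 (-0.47, SE 0.08), Rpl6 (-0.44, SE 0.07), Rpl14 (-0.42, SE 0.07) and Rps27rt (-0.60, SE 0.13) fell. The members called higher were Rpl41 (0.62, SE 0.20), Rplp0 (0.61, SE 0.18) and Rpl34 (0.29, SE 0.13), and they were not called with each mouse fitted as a block, where 34 members fell (25.3% of all genes) and none rose. All 3 rested on non-responder 29. In its Day 24 library Rpl41 was at 11.98 log2 CPM, while the other 29 non-responders reached at most 8.67 (median 7.88), and Rplp0 was at 12.84 against at most 9.55. Rps29 was at 9.37 against at most 7.12, whereas Rpl3, at 6.85, lay just under the 6.90 to 7.17 of the others. Of the 88 tested members, 78 were above all the other non-responders in this library, 5 were below them and 5 were within their range. The mean red cell marker level of this library was also the highest of any library, 8.54 log2 CPM, and the part of red cell RNA in this pattern was not tested. Without this library 75 members fell in non-responders on Day 24 and none rose (median -0.30, 26.8% of all genes called lower), with Rpl41 at -0.0022 and Rpl34 at -0.04.

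The falls over time kept their direction on the other scales, but not all their calls. Relative to non-haemoglobin counts without TMM factors, 70 members fell on Day 9 in responders and 80 in non-responders (4.33% and 19.1% of all genes called lower). On Days 17 and 24 the counts were 11 and 9 in responders (0.438% and 0.876% of all genes) and 76 and 80 in non-responders (30.6% and 34.6%). In log2(TPM + 1), tested with limma, 67, 87 and 88 members fell in non-responders on Days 9, 17 and 24, where 9.32%, 60.3% and 69.1% of all genes were called lower, so most genes moved the same way on the later 2 days. In responders only 2, 0 and 0 fell (0.112%, 0.024% and 0.016% of all genes). For these last 2 counts of 0, edgeR called 61 and 69 members lower on the TMM scale and DESeq2 62 and 71. By ear tag series, a possible batch that splits the mice into 18 with 4-digit tags (11 responders) and 27 with 3-digit tags (4 responders), 54 members fell on Day 9 among 4-digit responders and 44 among 3-digit responders (9.3% and 3.31% of all genes called lower). Among non-responders 83 fell in the 3-digit series (28.7% of all genes) but 4 in the 7 mice with 4-digit tags, a share below that of all genes there (6.2%), and the median was -0.55 and -0.11.

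Between responders and non-responders, the scale decided the direction on Days 4 and 9, and on Day 4 the share of members called was close to that of all genes on the TMM scale and in TPM. On the TMM scale, 7 members were higher in responders on Day 4 and none lower (median 0.25 beside -0.01 for all genes, 6.4% called higher), whereas 12 were lower and 1 higher relative to non-haemoglobin counts (39.5% of all genes called lower) and 86 were lower and none higher in TPM (median -0.57 beside -0.27, 83.6% called lower). On Day 9, 45 were higher and none lower on the TMM scale (median 0.15 beside -0.02, 9.43% called higher), whereas 57 were lower and 5 higher relative to non-haemoglobin counts (median -0.21 beside -0.38, 76.4% of all genes called lower), and 86 were lower in TPM (median -0.57 beside -0.26, 87.5% called lower). Relative to the median of all genes, the members thus stood 0.17 higher in responders on Day 9 on both count scales. In TPM they stood lower than it, on a scale where the added 1 understates differences of low genes. Among the 534 genes with a median of at least 10 TPM, the median difference on Day 9 was -0.50 and that of the 78 members among them -0.60. On both count scales 5 members were called higher on Day 9 (Rpl41, Rps29, Rplp2, Rplp0 and Rpl38), and Rpl41 also on Day 4, but none of them in TPM. Of the 45 members called on Day 9 on the TMM scale, 3 differed by at least 1.5-fold, beside 458 of 12608 genes called higher by that fold.

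Members differed widely among themselves in this contrast. Rpl41 was at 7.67, 8.57 and 9.60 log2 CPM in responders on Day 9 and at 6.94, 7.84 and 8.66 in non-responders, with the median responder close to the highest non-responder. Its log2 difference was 0.83 (SE 0.14, edgeR adjusted p = 3.46e-05) on the TMM scale and -0.01 in log2(TPM + 1), the top of the members' range in TPM, whose lowest value was -0.79. Rps29, a zinc-binding protein of the small subunit, differed by 0.79 (SE 0.14) on the TMM scale and by -0.13 in TPM. The stalk proteins Rplp2 (0.62, SE 0.10), Rplp0 (0.52, SE 0.11) and Rplp1 (0.50, SE 0.10) were all higher in responders on the TMM scale and at -0.24, -0.24 and -0.33 in TPM. Relative to non-haemoglobin counts Rpl41 (0.44), Rps29 (0.40), Rplp2 (0.23) and Rplp0 (0.13) stayed called higher, and Rplp1 (0.11) did not. Rpl39, a short protein at the exit tunnel (0.52, SE 0.11), Rpl37a (0.43, SE 0.07) and Rpl28 (0.40, SE 0.07) were also called higher on the TMM scale, where Rpl37a and Rpl28 stood at -0.36 and -0.34 in TPM. Against this, Rps4x (0.01, SE 0.04, edgeR adjusted p = 0.942) overlapped fully, at 6.59 to 6.95 log2 CPM in responders and 6.60 to 7.02 in non-responders on Day 9. By symbol, 17 of 37 Rps members, which include the uncalled Rps19bp1, and 28 of 51 Rpl members were called higher on the TMM scale, a direction that reversed in TPM.

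On Day 4, before treatment, the same kinds of member led on the TMM scale: Rpl41 (0.86, SE 0.21, edgeR adjusted p = 0.00547), Rpl39 (0.66, SE 0.19), Rps29 (0.64, SE 0.19), Rplp0 (0.64, SE 0.21), Rplp2 (0.61, SE 0.20), Rps12 (0.61, SE 0.19) and Rpl38 (0.56, SE 0.18). In log2(TPM + 1) all 7 had the opposite sign, from -0.11 for Rpl41 to -0.35 for Rpl38. Rpl41 ran from 7.21 to 10.10 log2 CPM in responders (median 8.50) and from 6.78 to 9.04 in non-responders (median 7.96), so the groups overlapped widely. The count on Day 4 was 1 without responder 2 or without responder 8 and 2 without responder 1.

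**Figure D3:**
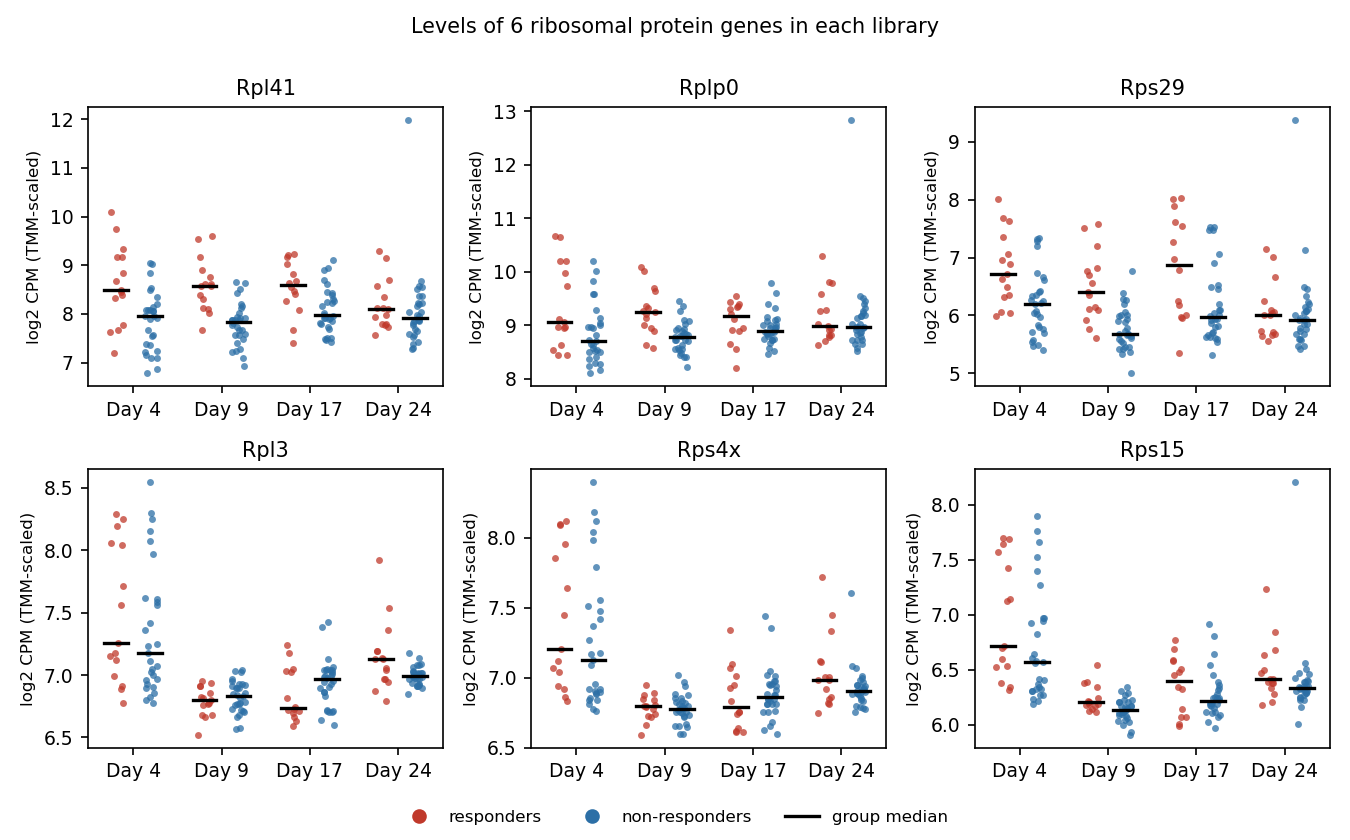
Log2 CPM (TMM-scaled) of 6 members in every library by day and response. Each panel is a gene, the x axis gives day and response, points are libraries and lines are group medians. Rpl3, Rps4x and Rps15 narrow and fall from Day 4 to Day 9 in both groups, whereas Rpl41, Rplp0 and Rps29 keep a wide spread and lie higher in responders than in non-responders on Day 9 on this scale (Rpl41 medians 8.57 and 7.84), a direction that the TPM scale reversed.

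On Day 17 only Rpl38, at 0.63 (SE 0.18, edgeR adjusted p = 0.0486), was called higher in responders, and no member was lower (0.799% of all genes called higher). The Rpl38 call was kept in 16 of the 44 fits that left out 1 mouse. Relative to non-haemoglobin counts and in TPM no member was called on Day 17 (0% and 0.008% of all genes called higher). Rps29 had a larger estimate on the TMM scale, 0.74 (SE 0.23, edgeR adjusted p = 0.0613). Rpl38 is the large subunit protein known for its part in translating Hox mRNAs, and its Day 17 levels ran from 3.94 to 5.92 log2 CPM in responders and from 3.89 to 5.59 in non-responders. Cell markers were called in the same contrast: on the TMM scale 3 of 10 neutrophil markers, the granule genes Ltf (1.42), Camp (1.42) and Ngp (0.97), were higher in responders, and 2 of 12 B cell markers, Pax5 (-0.31) and Cd22 (-0.27), were lower, none of them called in TPM. Their part in the difference was not tested. No ribosomal protein gene was called with the library of non-responder 24 counted as a responder (1.08% of all genes called higher). None was called in the 4-digit or 3-digit ear tag series alone either (0% and 0.008% of all genes). On Day 24, 3 members were higher in responders, among them Rpl14 (0.17, SE 0.05) and Rpl3 (0.18, SE 0.06), and none lower (3.41% of all genes called higher), with a median over members of -0.01. Without non-responder 29, 37 members were called higher on Day 24 (12.6% of all genes) and the median was 0.17, whereas without responder 1, 8, 9 or 13 none was.

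The ear tag series bore on these differences too. With the series as a covariate, 63 members were higher in responders on Day 4 and 37 on Day 9 on the TMM scale (10.7% and 5.89% of all genes called higher). Within the 4-digit series no member was called on any day, where 0% of all genes were called. Within the 3-digit series 16 were called on Day 9 (3.96% of all genes) and none on the other days, where at most 0.008% of all genes were called. These counts of 0 therefore do not set the members apart from other genes. On Day 24 the median log2 difference was -0.45 within the 4-digit series, which holds non-responder 29, 0.25 within the 3-digit series and -0.13 with the series as a covariate. Without the Day 24 library of that mouse it was 0.13 within the 4-digit series, with no member called (0.097% of all genes called higher). With the series as a covariate it was then 0.20, with 25 members higher (4.6% of all genes). For the median member on Day 4, the group medians were 6.31 log2 CPM (11 responders) and 5.91 (7 non-responders) in the 4-digit series, and 6.91 (4 responders) and 6.27 (22 non-responders) in the 3-digit series. On Day 9 they were 6.00 and 5.82 in the 4-digit series and 5.96 and 5.82 in the 3-digit series. The median was thus higher in responders within each series on Days 4 and 9 on the TMM scale.

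Whether the change from Day 4 itself differed with response was tested over all 178 libraries. On Day 9 no member was called (0% of all genes called), with none at an unadjusted p below 0.05 and none called by DESeq2 or limma. The estimates, responders minus non-responders, ran from -0.18 to 0.27, with a median of -0.09, and an SE of 0.32 for Rpl41 and 0.13 for Rps4x. On Day 17 none was called by edgeR, DESeq2 or limma either, none had an unadjusted p below 0.05, and the median was -0.13 (0.351% of all genes called). On Day 24, Rpl41 (-1.12, SE 0.32, edgeR adjusted p = 0.0313) and Rplp0 (-0.91, SE 0.28, edgeR adjusted p = 0.0447) differed (2.1% of all genes called lower), with negative estimates in responders and higher levels than on Day 4 in non-responders. These 2 calls were lost without non-responder 29, and also with each mouse fitted as a block. With ear tag series by day as a covariate 62 members were called lower (6.34% of all genes, median -0.53), but without the Day 24 library of non-responder 29 none was in that fit either (median -0.28). With that covariate and all libraries the medians were -0.31 on Day 9 and -0.30 on Day 17, and no member was called on either day. These directions hold for the TMM scale: the medians on Days 17 and 24 were 0.15 and 0.12 relative to non-haemoglobin counts and 0.45 and 0.49 in TPM, where all 88 members were positive.

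Other genes of translation were described from lists to place the family, and their counts stand beside 14.2% of all genes called lower and 13.5% higher in responders on Day 9 and 27.5% and 23.3% in non-responders. On Day 9, 14 of 19 further TOP mRNAs fell in responders and 15 of 19 in non-responders (medians -0.45 and -0.34). Among them Eef1a1, the factor that delivers tRNAs to the ribosome, fell by 0.65 in responders and 0.54 in non-responders, Eef1g by 0.53 in non-responders, and Rack1, a scaffold protein on the small subunit, by 0.63 and 0.52. Of 45 ribosome biogenesis genes 24 and 37 fell (medians -0.23 and -0.22), with the nucleolar factor Noc2l at -0.33 in non-responders. Of 29 initiation factors 14 and 18 fell (medians -0.24 and -0.20). Mitochondrial ribosomal protein genes moved less, with 19 of 79 falling in responders and 42 in non-responders, medians of -0.15 and -0.14, and 1 gene rising in each. That gene in non-responders was Mrpl33 (0.50, SE 0.06). The 14 genes of mTORC1 and TOP control showed no common direction, with 2 rising and 3 falling in responders and 2 rising and 4 falling in non-responders.

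On Day 9 the T and B cell markers fell as the family did, while neutrophil and monocyte markers rose. Red cell markers also stood higher than on Day 4. The group median of their mean level was 4.61 log2 CPM on Day 4 and 5.225 on Day 9 in responders. In non-responders it was 3.81 and 4.29. All 12 T cell markers fell in non-responders and 11 of 12 in responders (medians -0.56 and -0.48), with Cd3e, a chain of the T cell receptor complex, falling by 0.55 (SE 0.04) and 0.39 (SE 0.08). Their mean level ran from 3.91 to 4.75 log2 CPM in non-responders on Day 4 and from 3.44 to 4.04 on Day 9. B cell markers fell in 12 of 12 cases in non-responders and 9 of 12 in responders, with the receptor chain Cd79a at -0.61 in non-responders. Neutrophil markers rose, 9 of 10 in non-responders and 6 of 10 in responders, with the granule protein gene Ltf at 3.61 (SE 0.34) in non-responders, and monocyte markers rose in 8 of 8 and 5 of 8 cases. No T or B cell marker was at 0 TPM in any library, and of the 10 neutrophil markers only Camp was, in 6 libraries (median over all libraries 0.10 TPM). The part of cell makeup in the fall of the ribosomal protein genes was not tested.

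Red cell genes moved with the difference between response groups. On Day 9, 6 of 7 red cell markers (median 0.81) and 5 of 5 tested haemoglobin genes (median 0.85) were higher in responders on the TMM scale, with the haemoglobin gene Hba-a2 at 0.86 (SE 0.18). The mean red cell marker level ran from 4.13 to 5.68 log2 CPM in responders and from 3.27 to 5.31 in non-responders. On Day 4, 4 of 6 red cell markers (median 1.14) were higher in responders, beside 7 members. Of the tested haemoglobin genes only Hbb-bt was called on Day 4, while the others, at 0.81 to 0.98, were not. T cell markers showed no call in either direction on either day. Some markers of other lists were called too, beside 6.4% of all genes called higher and 1.01% lower on Day 4. On Day 9 these shares were 9.43% and 3.95%, so a single marker called in a list says little about that list. On Day 4, 4 of 9 tested neutrophil markers (S100a8, S100a9, Cxcr2 and Mmp8, at 0.43 to 0.70) and 2 of 8 monocyte markers (Lyz2 at 0.51 and Ly6c2 at 0.39) were higher in responders on the TMM scale, all 6 with the opposite sign in TPM, and 2 of 12 B cell markers (Pax5 at -0.26 and Ebf1 at -0.19) were lower. On Day 9, 4 of 7 platelet markers (Treml1, Gp9, Itga2b and Gp1ba) and 1 of 8 NK cell markers (Nkg7) were called higher on the TMM scale, 1 of 12 B cell markers (Ebf1) was lower and no neutrophil or monocyte marker was called. The part of red cell or other cell RNA in the difference was not tested.

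The members varied together, though not all with the same marker list. With the 8 group means removed, a member's mean correlation with the other members across the 178 libraries had a median of 0.80, and it exceeded 0.5 for 81 of 88. The exceptions included Rps19bp1 (-0.20), Rps27l (-0.01), Rpl7l1 (0.07) and Rps4l (0.14). Over 177 libraries, leaving out that of non-responder 29 on Day 24, the correlation with the mean red cell marker level was highest for Rplp0 (0.79) and Rpl41 (0.77), and that with the T cell marker level for Rpl12 (0.51), Rps3 (0.49) and Rpl14 (0.49). For the 45 members called higher in responders on Day 9 on the TMM scale, the median correlation was 0.48 with red cell markers and 0.30 with T cell markers, and 21 of them exceeded 0.5 with red cell markers. For the other 43 the medians were 0.22 and 0.41, and none exceeded 0.5 with red cell markers. That 1 library moved these values: over all 178 libraries the medians were 0.61 with red cell and 0.13 with T cell markers for the 45, of which 36 exceeded 0.5 with red cell markers, and 0.37 and 0.28 for the other 43, of which 6 did. The order of the 2 lists among the other 43 thus rested on leaving it out. Platelet markers were correlated with the named members too. Over the 177 libraries r was 0.73 for Rplp0, 0.67 for Rpl41, 0.585 for Rpl12, 0.431 for Rps3 and 0.435 for Rpl14. For Rps12 (0.69 against 0.64) and Rplp1 (0.695 against 0.614) it was higher than with red cell markers. These are descriptions across libraries that share mice, depth and scaling factors.

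**Figure D4:**
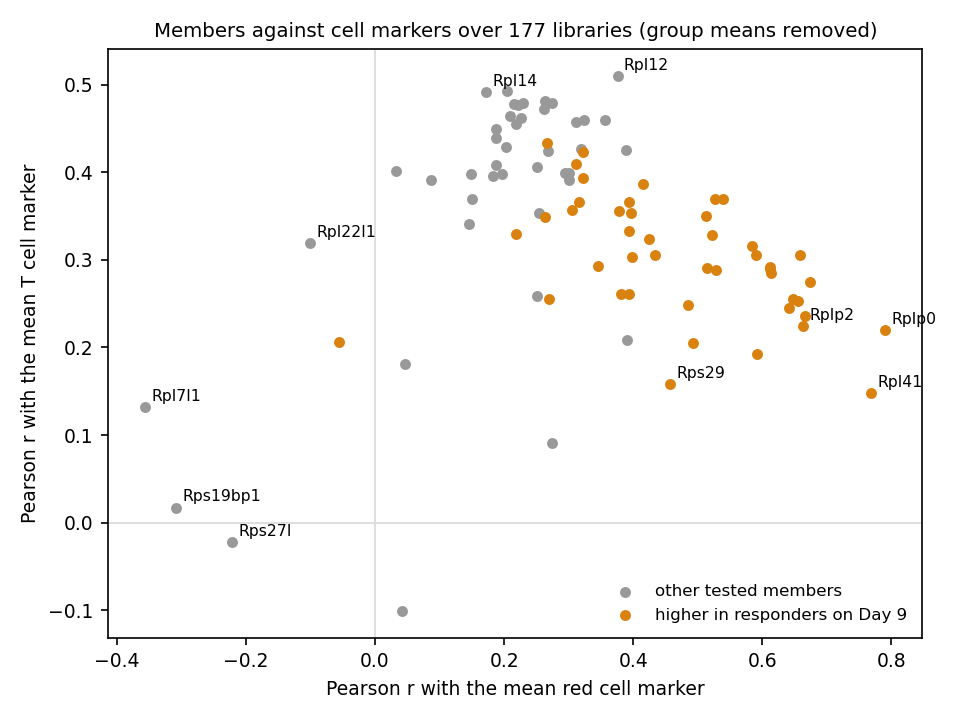
Correlation of each tested member with the mean level of red cell markers (x axis) and of T cell markers (y axis), Pearson r on log2 CPM with group means removed, over 177 libraries. Each point is a member, and orange marks the 45 called higher in responders on Day 9 on the TMM scale (the direction reversed in TPM). Rplp0 and Rpl41 lie farthest to the right (0.79 and 0.77), and the members not called lie at 0.39 or less on the x axis. Platelet markers, with which Rplp0 had r = 0.73, are not plotted.

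The pattern was also described with 1 library per mouse, in the 29 non-responders of Day 4. These libraries are among the 177 above and the genes were picked for the pattern seen there, so the values are given without a test. Rpl41 followed the red cell markers (r = 0.79, rho = 0.76), and r was 0.76 without the 2 mice farthest from the median marker level. With T cell markers Rpl41 had r = 0.52 (rho = 0.50), and 0.39 without the 2 farthest mice. Rpl3 followed the T cell markers (r = 0.74, rho = 0.74), with 0.67 without the 2 farthest mice, whereas with red cell markers its r was 0.38 and its rho only 0.21. Rps4x resembled Rpl3 (r = 0.76 with T cell and 0.37 with red cell markers), and Rplp0 followed both lists (r = 0.68 with red cell and 0.66 with T cell markers). Within the 3-digit ear tag series (22 mice) r was 0.80 for Rpl41 and 0.60 for Rpl3 with red cell markers, and 0.63 and 0.69 with T cell markers. Within the 4-digit series (7 mice) it was 0.40 and -0.27 with red cell markers and 0.40 and 0.13 with T cell markers, lower than in the 3-digit series for each of these 4 relations, in a number of mice too small to tell whether a relation holds.

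Copies and relatives of the standard subunits were measured beside their parents, and short reads can be split between near-identical copies, so their values are uncertain. Rpl22l1, the paralogue of Rpl22, fell on Day 9 by 0.41 in responders and 0.38 in non-responders, and Rpl36al, the paralogue of Rpl36a, by 0.41 and 0.30. Rps27l, a p53-induced relative of Rps27, stood at 0.15 (SE 0.13) and 0.11 (SE 0.07), uncalled in either group. Rpl7l1, a relative of Rpl7 found in nucleolar precursors, changed little, at -0.10 in non-responders (SE 0.04, edgeR adjusted p = 0.0125) and -0.11 in responders (SE 0.06, edgeR adjusted p = 0.181), and it was the member with the smallest SD between mice on Day 4 (0.16 in each group). Rps27rt fell by 0.54 in responders (SE 0.18) and 0.82 in non-responders (SE 0.13) on Day 9. The single member called higher against Day 4 on Day 9 was Rps12l1 in non-responders (0.36, SE 0.16, edgeR adjusted p = 0.0445), annotated as a pseudogene and ranging from -1.44 to 1.21 log2 CPM on Day 4 and from -1.80 to 0.74 on Day 9, which is a shift smaller than its spread between mice.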

How the data were processed

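Whole blood from 45 mice was sequenced as 178 poly(A) libraries (SMARTer mRNA-Seq kit). The authors aligned reads with STAR to mm10 according to the processing notes, with versions, counting tool and annotation not given in the sources used here, and gene IDs matched GENCODE M21. The deposited expected counts per gene (3.14% of values not whole) were rounded, and the deposited TPM, which the authors computed from counts and gene length, served for levels between genes and as an alternative scale.

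Genes were kept by filterByExpr, scaled by TMM and tested with edgeR 4.0.16 (R 4.3.3) glmQLFTest, two-sided, with Benjamini-Hochberg adjustment over all genes tested, a member being called at an adjusted p of at most 0.05. Response groups were compared within each day, days within each response group against Day 4, and the difference of change over all libraries. Log2 CPM used a prior count of 2 and log2(TPM + 1) a pseudocount of 1. The comparisons of days and the difference of change treated the libraries of a mouse as independent, except where the mouse was fitted as a block. Between response groups within a day each library came from a separate mouse, so those p-values measure the spread between mice. Total counts of 26058958 to 82208665 per library left the counting error of well-expressed members far below that spread.

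Named members were the 4 with the smallest p per comparison and direction, the P stalk, paralogues and a reference list, the 5 highest and 3 lowest by TPM, and from each other list the 2 genes with the smallest p. Rpl12, Rps3, Rpl38 and Rpl39 in further places, and Rpl41, Rplp0, Rps4x and Rps29 beside their own comparisons, and the neutrophil, monocyte, B cell, platelet and NK cell markers called between response groups, were added after their values were seen, and some genes that the rule names are not reported here. Members and lists were chosen with earlier results of these data known. Within response groups the same mouse was bled up to 4 times, as the ear tags show, and deviations from the group means correlated between days of a mouse by -0.0495 to 0.0966 on average. Alternatives were limma 3.58.1 and a two-sided Wilcoxon rank-sum test on TPM, DESeq2 1.42.0, other filters and scalings, the mouse as a block, ear tag series, the label of non-responder 24 and leaving out each mouse. Scaling to non-haemoglobin counts without TMM factors, the limit of at least 10 TPM, and ear tag series combined with leaving out the Day 24 library of non-responder 29, were chosen after seeing the data. Tested on simulated data, the fit between response groups on Day 9 recovered 82 of 100 genes changed by 1.5-fold and 99 of 100 changed by 2-fold, with 9 false calls among 12408 unchanged genes, and the fit of Day 9 against Day 4 in responders recovered 69 and 90 of 100, with 14 false calls among 12360. Reads of ribosomal protein pseudogenes made up 0.64% to 0.99% of the counts of members and pseudogenes together.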

Additional observations from a re-analysis of the deposited data

Results flagged for a closer look

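Rpl41 and Rplp0 were flagged because their change from Day 4 to Day 24 differed between response groups by a test of the difference itself. That test called 2 of 88 members lower, a share close to the 2.1% of all genes it called lower. The difference, responders minus non-responders, was -1.12 on the log2 scale for Rpl41 and -0.91 for Rplp0 on the TMM scale. Rpl41 changed by -0.53 in responders (SE 0.22) and by 0.62 in non-responders (SE 0.20), and Rplp0 by -0.33 (SE 0.20) and 0.61 (SE 0.18). Neither was called without the Day 24 library of non-responder 29 or with each mouse fitted as a block, and in log2(TPM + 1) the differences were 0.11 and 0.20.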

How the results depend on the processing

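Falls from Day 4 kept a negative median under all alternatives except in non-responders on Day 24 with 4-digit tags alone (median 0.57, 3 members called, higher, in a set of 7 mice that holds non-responder 29), while differences between response groups reversed with the scale. In the same 7 mice the Day 17 median was -0.021 beside -0.019 for all genes, with 40 of 88 members positive, so no fall of the family stood there. Counts below are members called of 88 (of 92 without the filter on low counts), for responders against non-responders on Days 4, 9, 17 and 24 in that order where 4 are given, and the cause of each change was not tested. Relative to non-haemoglobin counts without TMM factors they were 13 (12 lower), 62 (57 lower), 0 and 0, with medians of -0.16 on Day 4 and -0.21 on Day 9. The falls were then 11 and 9 in responders on Days 17 and 24 and 80 in non-responders on Day 24, no difference of the Day 24 change was called (0), and the medians of the differences of change were 0.15 on Day 17 and 0.12 on Day 24. On this scale the median of all genes was -0.34 on Day 4 and -0.38 on Day 9, against -0.01 and -0.02 on the TMM scale, and 39.5% of all genes were called lower on Day 4. In log2(TPM + 1) with limma they were 86, 86, 0 and 0, all lower where called, with medians of -0.57, -0.57 and -0.11 on Days 4, 9 and 17, and 86, 87, 0 and 0 by the Wilcoxon test. There the falls were 2, 0 and 0 in responders and 87 and 88 in non-responders on Days 17 and 24, 1 member was called in the difference of the Day 24 change, and the medians of the differences of change were 0.45 on Day 17 and 0.49 on Day 24. DESeq2 called 4 on Day 17, 15 on Day 24 (median 0.11) and 8 in the difference of the Day 24 change, where it called 1.86% and 9.34% of all genes higher and 3.88% lower. Without the filter on low counts 3, 0 and 0 were called on Days 4, 17 and 24, and 0 in the difference of the Day 24 change. With a fold of at least 1.5 required, 3 and 0 were called higher on Days 9 and 24, beside 458 of 12608 and 24 of 12469 genes. The falls were then 25, 12 and 6 in responders, beside 201, 110 and 232 of 12560 genes. In non-responders they were 14 and 0 on Days 9 and 17, beside 210 and 77 of 13009 genes. On Day 24, 3 (2 higher) were called in non-responders, beside 514 genes higher and 270 lower.

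With ear tag series as a covariate 63, 0 and 0 were called on Days 4, 17 and 24, and 62 in the difference of the Day 24 change with series by day (0 without the library of non-responder 29, and then 3, Rplp0, Rps14 and Rpl7, in that of Day 17). With 4-digit tags alone 0 were called on each day between response groups (0% of all genes) and 5 in responders on Day 24 (1.66% of all genes called lower). In non-responders 4 and 2 were called on Days 9 and 17 (6.2% and 6.03% of all genes called lower). With 3-digit tags alone 0, 16, 0 and 0 were called between response groups (median 0.25 on Day 24, against -0.45 with 4-digit tags alone and -0.13 with the series as a covariate, which became 0.13 and 0.20 without the library of non-responder 29), 44, 0 and 0 in responders and 78 in non-responders on Day 24. Between these response groups 3.96% of all genes were called higher on Day 9 and at most 0.008% on the other days. In these responders 0% of all genes were called on Days 17 and 24, where the member medians were -0.54 and -0.55. No member was called (0) on Day 17 with the library of non-responder 24 counted as a responder, where 1.08% of all genes were called higher. Without the Day 24 library of non-responder 29, 37 were called between response groups on Day 24 (median 0.17), 75 in non-responders on Day 24 and 0 in the difference of change. Leaving out each mouse in turn gave 1 to 14 on Day 4, 41 to 49 on Day 9, 0 to 5 on Day 17 and 0 to 37 on Day 24 between response groups, where the Day 24 median ran from -0.060 to 0.17. The same gave 63 to 76, 52 to 66 and 28 to 79 in responders and 72 to 82, 46 to 71 and 27 to 75 in non-responders on Days 9, 17 and 24. With the mouse as a replicate block 0 were called in the difference of the Day 24 change and 34 fell with none higher in non-responders on Day 24. Elsewhere the block moved the counts little. In responders 70, 59 and 70 fell on Days 9, 17 and 24 (14.8%, 13.8% and 10.9% of all genes called lower). In non-responders 73 and 53 fell on Days 9 and 17 (27.2% and 24.3%). No paired analysis was possible between responders and non-responders because each mouse is in 1 response group.

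Of the 86 called gene and comparison pairs with values in the text, 57 kept their sign in every setting and 9 their call. Signs reversed in log2(TPM + 1), by limma and the Wilcoxon test, for responders against non-responders on Day 4 (Rpl41 -0.11, Rpl39 -0.25, Rps29 -0.28, Rps12 -0.28, Rplp0 -0.29, Rplp2 -0.34, Rpl38 -0.35, S100a8 -0.18, Mmp8 -0.18, Cxcr2 -0.26, Lyz2 -0.34, S100a9 -0.35, Ly6c2 -0.42) and on Day 9 (Rpl41 -0.013, Rps29 -0.13, Rplp0 -0.24, Rplp2 -0.24, Rpl39 -0.28, Rplp1 -0.33, Rpl28 -0.34, Rpl37a -0.36), and by limma for the difference of the Day 24 change (Rpl41 0.11, Rplp0 0.20). In non-responders on Day 24, Rpl41 reversed in TPM (-0.23), with 3-digit tags alone (-0.013) and without the library of non-responder 29 (-0.0022), and Rplp0 in TPM (-0.21) and with 3-digit tags alone (-0.0054). Rpl34 reversed in TPM (-0.36), relative to non-haemoglobin counts (-0.10), with 3-digit tags alone (-0.13), by DESeq2 (-0.034), without the library (-0.044) and without the mouse (-0.051) of non-responder 29, and ran up to 0.34 without other mice. With 4-digit tags alone Rpl3 (0.050) and Rpl6 (0.094) reversed in non-responders on Day 24 and Rpl36al (0.020) on Day 9. The lowest tested members by TPM were Rps4l, Rpl6l and Rps19bp1, and how far depth limited their values was not measured.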

Other observations

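The length of the principal annotated transcript was available for 77 of the 88 tested members. Across these genes, which are not independent replicates, Spearman's rank correlation of length with the log2 difference between responders and non-responders was -0.26 on Day 4, -0.39 on Day 9, -0.45 on Day 17 and 0.13 on Day 24 on the TMM scale. With the change from Day 4 it was -0.04 in responders and 0.15 in non-responders on Day 9, and 0.42 and -0.03 on Day 24. In the promoter windows, CGGAAG was found in 27 of the 36 members called higher in responders on Day 9 on the TMM scale (75.0%) and in 16 of the other 28 tested members with an entry (57.1%), and a pyrimidine run of at least 8 bases in 29 (80.6%) and 20 (71.4%). CTTTCC went the other way, near the start on the coding strand in 9 (25.0%) and 9 (32.1%), and on either strand over the whole window in 17 (47.2%) and 14 (50.0%). These shares are descriptions and were not tested.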
